A study of Mus musculus with 12 samples.

Results

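The lysine and glutamine transfer RNA (tRNA) loci are the 46 rows of a mouse oocyte small RNA table whose names carry a tRNA label and the amino acid Lys or Gln. They are 46 of 435 tRNA loci and of 2030 small RNA features in all, and they were taken by name alone, not by their values. By anticodon, the base triplet that reads the codon, the table holds 19 Lys CTT, 11 Lys TTT, 10 Gln CTG and 6 Gln TTG loci, with anticodons written in DNA letters. A tRNA brings its amino acid to the ribosome, and its anticodon decides which codons it reads. For both amino acids the anticodon that begins with C reads the codon ending in G, and the anticodon that begins with T (U in the RNA) reads the codon ending in A, and cells modify that U chemically. The genes lie as many near-identical copies across the mouse genome. Mature tRNAs are also cut into fragments, which small RNA libraries contain and which have been studied in sperm as carriers of paternal information. The table gives a sum of reads per locus, so full-length tRNA and its fragments cannot be told apart here.

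The libraries were made from oocytes picked by hand out of ovaries of mice that had not been stimulated with hormones. There were 12 libraries in 3 groups of 4, namely wild type mice with wild type ancestors, Khdc3-null mice, and wild type mice whose grandmothers were wild type and whose grandfathers were Khdc3-null, called descendants here. Khdc3 is a maternal-effect gene whose protein belongs to the subcortical maternal complex of the oocyte, and the comparison asks whether oocyte small RNAs differ with the loss of Khdc3 or with that ancestry. Strain, age and the number of mice or oocytes behind a library were not given, no treatment was named for any group, and the mutation could not be checked, since the table lists no mRNA. No label ties the libraries of a group to separate animals, so p-values refer to the spread between libraries, which may be technical.

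Levels are given in RPM, reads of a locus relative to all mapped reads of its library, after removal of the 1 that had been added to every deposited value. The libraries held 2918620 to 7640554 mapped reads, so that 1 read equalled 0.131 to 0.343 RPM and a count of 0 allowed up to 0.393 to 1.03 RPM (3 reads, counting error only). The first Khdc3-null library stood apart, with a median correlation of 0.918 with the other libraries over all features, against 0.946 to 0.961 for the rest. MicroRNA markers of smooth muscle, stroma and vessels (10 of 10 listed hairpins in the table) summed to 9694 to 12891 RPM in wild type, 9954 to 11552 RPM in Khdc3-null and 7369.9 to 8879.8 RPM in descendant libraries. In this sum every descendant library lay below every library of the other groups. Oocyte and early embryo markers (6 of 8) summed to 119 to 169.7 RPM, 64.7 to 145 RPM and 107 to 162 RPM in the same order, and granulosa cell markers (8 of 9) to 3551 to 4939 RPM, 3679.8 to 4871 RPM and 3355 to 4052 RPM. Erythrocyte markers (3 of 5) summed to 172 to 286 RPM, 201 to 268 RPM and 209 to 280 RPM in that order. Leukocyte markers (4 of 6) summed to 59.7 to 100 RPM, 78.3 to 133 RPM and 54.3 to 104 RPM. No marker in the table was at 0 in every library. Fewer cells of a type and less RNA per cell cannot be told apart in such bulk samples, and the part of other cell types in the values below was not tested.

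Lysine and glutamine loci together held a small and rather steady share of the tRNA reads. They summed to 2010.4 ± 159 RPM in wild type, 1874 ± 294 RPM in Khdc3-null and 1919.5 ± 137 RPM in descendant libraries (mean ± SD, n = 4 each). Their share of all tRNA reads was 3.01, 2.77, 2.88 and 2.93% in the wild type, 1.89, 2.54, 2.83 and 3.06% in the Khdc3-null and 3.01, 2.89, 2.97 and 2.54% in the descendant libraries. The first Khdc3-null library was the lowest of the 12, and the 3 groups overlapped. Glycine and glutamate loci, 50 in number and the usual sources of abundant fragments from the 5′ end of a tRNA, held a mean of 26.6% of the tRNA reads, with 37.0% in that same library. By mean RPM, lysine ranked 7 and glutamine 12 among the 23 amino acid labels of the table.

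The 46 loci were very uneven. Mean levels over the 12 libraries ran from 558 RPM at chr1.trna1276-LysCTT to 0.851 RPM at chr16.trna76-LysCTT, a 656-fold range. Only 4 loci had a mean above 100 RPM, 19 lay between 10 and 100 RPM and 23 lay below 10 RPM. The median locus, at 11.4 RPM, was close to the median of all tRNA loci, at 11.1 RPM. The 4 loci above 100 RPM, a pair of Lys CTT and a pair of Gln CTG loci, held 69.9% of the lysine and glutamine reads on average and between 54.4% and 78.9% in single libraries. The order of anticodons was Lys CTT above Gln CTG above Lys TTT above Gln TTG, in every library except the second descendant library, where Gln CTG stood above Lys CTT. Among 53 anticodon labels, Lys CTT ranked 8, Gln CTG 11, Lys TTT 28 and Gln TTG 40 by mean RPM.

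**Figure D1:**
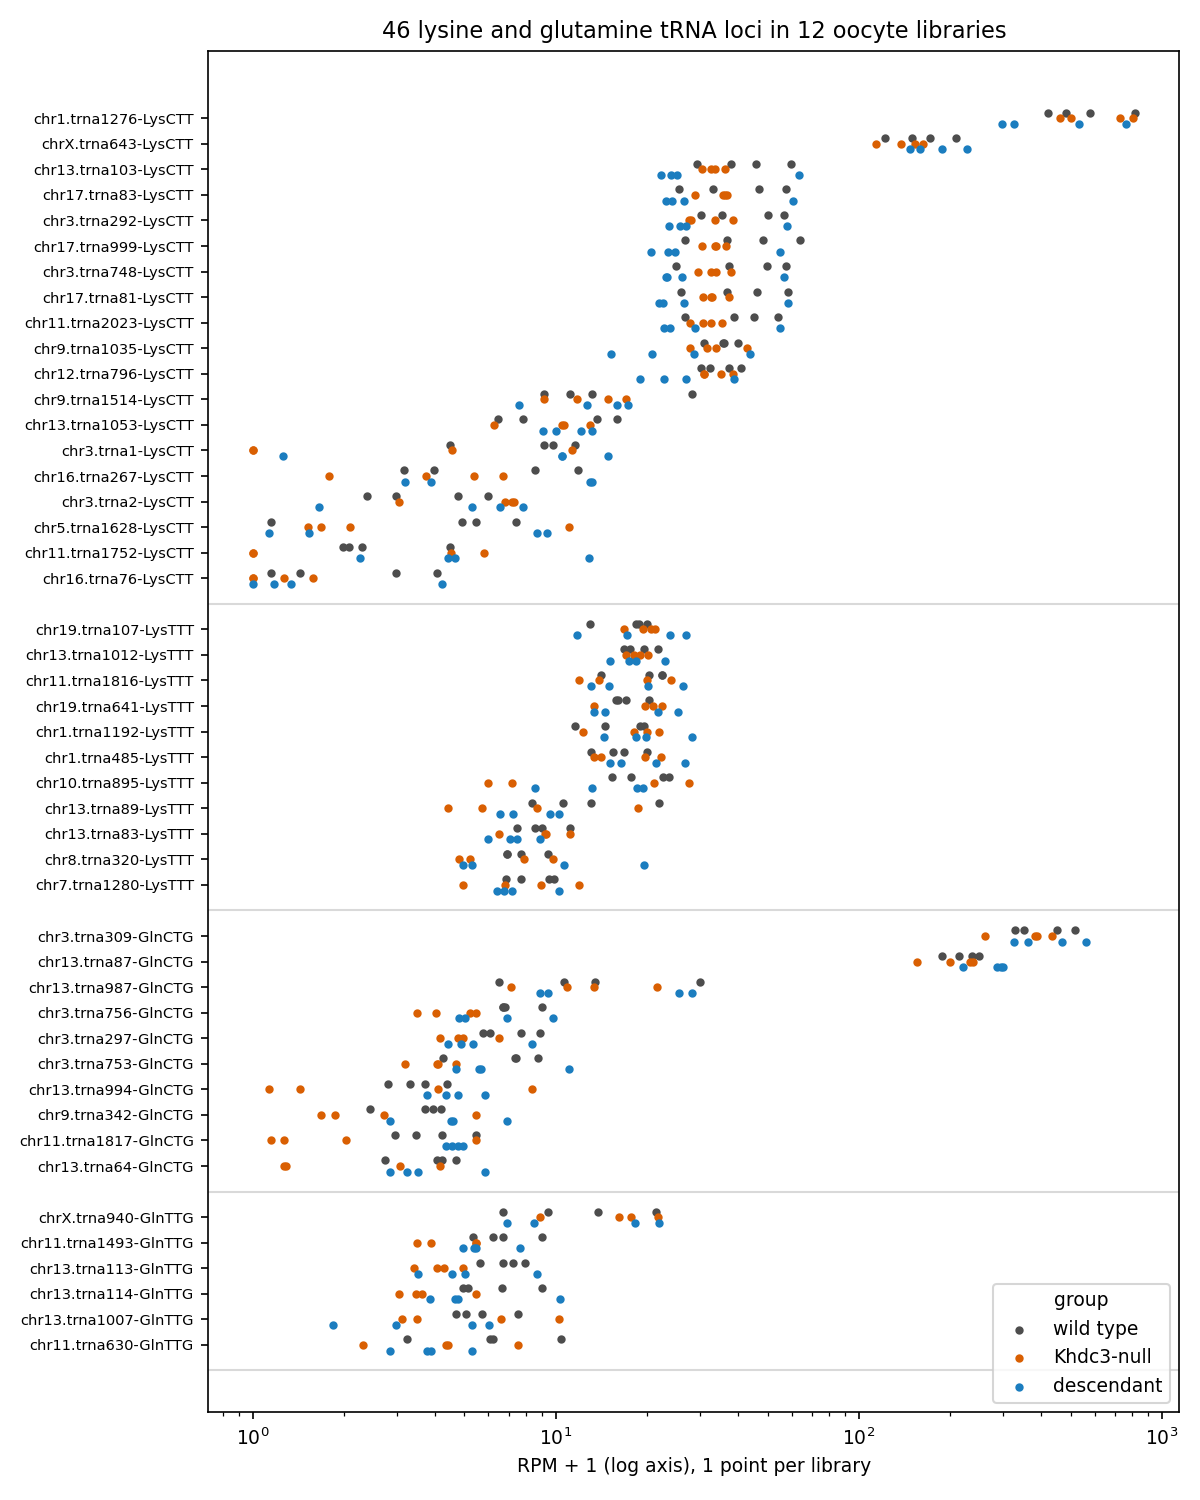
Level of each of the 46 lysine and glutamine tRNA loci as RPM + 1 (log axis) in every library, 1 point each, ordered by anticodon and mean level, with libraries coloured by group. The 4 loci with a mean above 100 RPM stand apart from the rest, and 2 scarce loci, chr3.trna1-LysCTT and chr11.trna1752-LysCTT, run from 0 RPM (at 1 on the axis) to above 10 RPM.

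Chromosome 13, which carries a large cluster of mouse tRNA genes, held 12 of the 46 loci, chromosome 3 held 8 and chromosome 11 held 6, and the rest lay on other chromosomes. The row names give a chromosome and a running number but no coordinates, so positions come from RefSeq (GRCm38.p6, the assembly of mm10), which lists 42 lysine and glutamine tRNA genes of 72 or 73 bases. Of these, 35 were intergenic in GENCODE M21, 6 lay in introns and 1 overlapped exons of noncoding genes. Counts per chromosome and amino acid were equal in 16 of 19 combinations, and 7 loci could be paired because each source had only 1 entry for that chromosome and amino acid. chrX.trna643-LysCTT paired with n-TKctt19 at chromosome X, 136195732 to 136195804, which is intergenic and 5144 bases from the protein-coding gene Tceal5. chr12.trna796-LysCTT paired with n-TKctt17 at chromosome 12, 70969120 to 70969192, intergenic and 4402 bases from Actr10. chrX.trna940-GlnTTG paired with n-TQttg1 at chromosome X, 13859166 to 13859237, intergenic and 7799 bases from Cask. chr9.trna342-GlnCTG paired with n-TQctg9 at chromosome 9, 64738046 to 64738117, only 288 bases from Rab11a. chr5.trna1628-LysCTT paired with n-TKctt8 at chromosome 5, 98041090 to 98041162, also intergenic. The RefSeq genes of the other pairs lay in introns. That of chr7.trna1280-LysTTT lay in Rinl (chromosome 7, 28793988 to 28794060). That of chr10.trna895-LysTTT lay in the antisense gene Igf1os (chromosome 10, 87829886 to 87829958). The RefSeq symbols of both carry ctt where the table has TTT, and no pair was checked by sequence. Over the whole genome RefSeq symbols carry 24 ctt and 2 ttt for lysine, against 19 and 11 in the table.

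Lys CTT tRNA reads, which come from the tRNA for the AAG codon, were the most abundant of the 4 anticodons. Their sum was 1423, 934, 994 and 1219 RPM in wild type, 903, 999, 1166 and 1300.1 RPM in Khdc3-null and 1029, 673, 1228 and 1005 RPM in descendant libraries. The first wild type library was highest, the second descendant library lowest, and the groups overlapped. A single locus, chr1.trna1276-LysCTT, supplied 51.3% of these reads on average but between 31.4% and 62.4% in single libraries, and it ranked 32 among all tRNA loci. It stood at 815, 421, 580.2 and 482 RPM in wild type, 460.0, 500.2, 728 and 801 RPM in Khdc3-null and 323, 296, 758 and 534 RPM in descendant libraries. Its group means were 575 ± 173, 622 ± 168 and 478 ± 215 RPM (SD, n = 4 each), and the libraries of each group spread over most of the range. Within groups its variance was 392 times that of read counting alone, the highest of the 46 loci, for which the median was 9.23 times. At a like relative spread this ratio grows with the number of reads, so it does not rank loci by relative spread. The highest value of chr1.trna1276-LysCTT was 2.75 times its lowest, against 77.0 times at the scarce chr5.trna1628-LysCTT.

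The next Lys CTT locus, chrX.trna643-LysCTT, stood at 171, 148, 121 and 208 RPM in wild type, 137, 162, 113 and 152 RPM in Khdc3-null and 158, 146, 226 and 187 RPM in descendant libraries. It was steadier, with the first 2 Lys CTT loci together making 66.6% of the Lys CTT reads. The third, chr13.trna103-LysCTT, stood at 44.8, 36.8, 28.2 and 58.5 RPM in wild type, 31.6, 32.5, 29.4 and 35.1 RPM in Khdc3-null and 62.4, 21.3, 23.0 and 24.2 RPM in descendant libraries, where the fourth wild type and the first descendant libraries were highest and the Khdc3-null libraries lay close together. At the scarce end, several Lys CTT loci were near 0 in some libraries and well above it in others of the same group. chr3.trna1-LysCTT stood at 10.6, 8.77, 8.15 and 3.47 RPM in wild type, 0, 10.3, 0 and 3.56 RPM in Khdc3-null and 9.50, 0.262, 13.9 and 9.50 RPM in descendant libraries. The 2 libraries at 0 allow up to 0.789 and 0.438 RPM (3 reads), and the second descendant library, at 0.262 RPM, stood apart from the rest of its group. chr5.trna1628-LysCTT ranged from 0.131 RPM, 1 read, in the second descendant library to 10.1 RPM, 69 reads, in the third Khdc3-null library. chr11.trna1752-LysCTT had no read in 2 Khdc3-null libraries and 11.9 RPM in the third descendant library. chr16.trna76-LysCTT, the 1 locus too scarce to be tested, was at 0 in 3 libraries.

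**Figure D2:**
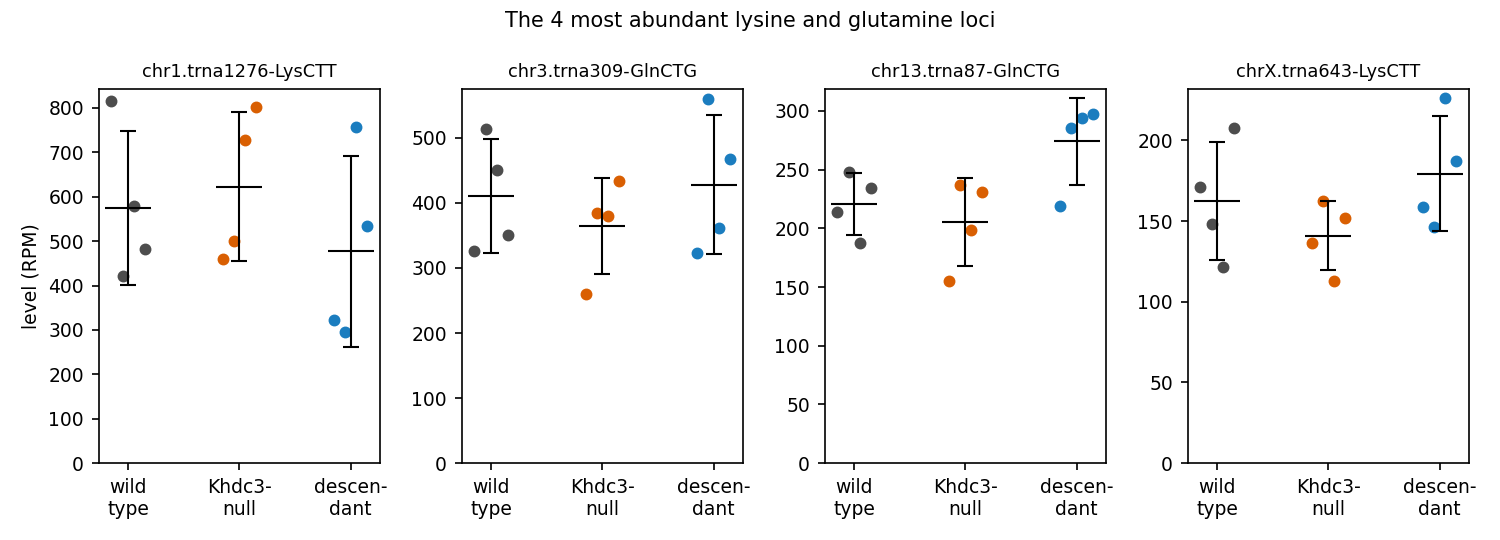
Level in RPM of the 4 most abundant lysine and glutamine tRNA loci in each library, with 1 panel per locus, points for the 4 libraries of a group and bars for the group mean and SD. At chr1.trna1276-LysCTT the points of each group run across most of the range, 296 to 815 RPM.

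Lys TTT reads, from the tRNA for the AAA codon, were spread evenly over their loci instead of resting on 1 or 2 of them. Their sum was 164, 137, 151 and 163 RPM in wild type, 119.7, 110.3, 193 and 169 RPM in Khdc3-null and 190.0, 161, 128 and 135 RPM in descendant libraries. The group means, 154 ± 12.9, 148 ± 39.7 and 153 ± 28.3 RPM (SD, n = 4 each), differed by less than the spread within groups, and the ratio of Lys CTT to Lys TTT reads was 7.21 on average, from 4.18 to 9.62. The most abundant locus, chr19.trna107-LysTTT, supplied only 11.9% of the Lys TTT reads. It stood at 18.9, 12.0, 17.8 and 17.3 RPM in wild type, 18.4, 15.8, 20.3 and 19.6 RPM in Khdc3-null and 26.0, 22.8, 10.7 and 16.1 RPM in descendant libraries. chr13.trna1012-LysTTT stood at 18.5, 16.6, 15.8 and 20.8 RPM in wild type, 16.0, 17.1, 19.1 and 18.0 RPM in Khdc3-null and 21.9, 16.5, 14.1 and 17.4 RPM in descendant libraries, with a variance only 1.87 times that of counting, 1 of 2 loci under 2 times. chr11.trna1816-LysTTT stood at 21.4, 13.1, 19.3 and 21.4 RPM in wild type, 12.9, 11.0, 23.1 and 19.1 RPM in Khdc3-null and 25.3, 19.2, 12.1 and 14.0 RPM in descendant libraries. All 3 loci overlapped between the groups. Less even were chr13.trna89-LysTTT, which ranged from 3.43 to 21.0 RPM, and chr10.trna895-LysTTT, which ranged from 5.00 to 26.4 RPM. chr8.trna320-LysTTT ranged from 3.80 to 18.6 RPM, with its highest value in the third descendant library.

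Gln CTG reads, from the tRNA for the CAG codon, rested on 2 loci almost alone. Their sum was 570.4, 803, 679.5 and 647 RPM in wild type, 460.0, 651, 596 and 695 RPM in Khdc3-null and 613, 896, 687 and 801 RPM in descendant libraries. The first Khdc3-null library was lowest and the second descendant library highest. chr3.trna309-GlnCTG and chr13.trna87-GlnCTG together supplied 93.9% of these reads, from 88.5% to 97.1% in single libraries. chr3.trna309-GlnCTG stood at 326, 514, 450.3 and 351 RPM in wild type, 259.6, 385, 380.4 and 434 RPM in Khdc3-null and 324, 560.0, 362 and 467 RPM in descendant libraries. chr13.trna87-GlnCTG stood at 214, 248, 188 and 235 RPM in wild type, 155, 237, 199 and 231 RPM in Khdc3-null and 219, 286, 294 and 297 RPM in descendant libraries, so that 3 descendant libraries lay above every library of the other groups and the first descendant library lay among them. Of the other 8 loci only chr13.trna987-GlnCTG had a mean above 10 RPM. It stood at 5.50, 12.5, 9.63 and 29.0 RPM in wild type, 12.4, 9.94, 6.14 and 20.6 RPM in Khdc3-null and 24.6, 27.2, 7.89 and 8.43 RPM in descendant libraries, and it spread from 5.50 to 29.0 RPM within wild type alone. The ratio of lysine to glutamine reads, 1.78 on average, was below 1 in the second descendant library only (0.907) and highest in the first wild type library (2.58).

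Gln TTG, from the tRNA for the CAA codon, was the scarcest of the 4 anticodons. Its sum was 44.1, 36.8, 29.1 and 46.8 RPM in wild type, 22.4, 43.9, 34.2 and 32.9 RPM in Khdc3-null and 49.5, 23.8, 34.9 and 24.0 RPM in descendant libraries. The ratio of Gln CTG to Gln TTG reads ran from 12.4 to 37.6, with a mean of 20.7. chrX.trna940-GlnTTG, which supplied 37.5% of the reads, stood at 20.4, 12.8, 5.68 and 8.46 RPM in wild type, 7.89, 16.8, 20.7 and 15.2 RPM in Khdc3-null and 17.2, 7.46, 21.0 and 5.92 RPM in descendant libraries, and each group held libraries above 16 RPM and libraries below 9 RPM. chr11.trna1493-GlnTTG stood at 4.34, 5.23, 5.68 and 8.05 RPM in wild type, 4.47, 4.45, 2.48 and 2.88 RPM in Khdc3-null and 6.63, 4.45, 4.36 and 3.94 RPM in descendant libraries. chr13.trna113-GlnTTG stood at 4.63, 5.70, 6.92 and 6.24 RPM in wild type, 3.95, 2.40, 3.07 and 3.29 RPM in Khdc3-null and 7.71, 3.53, 4.03 and 2.51 RPM in descendant libraries, and there every Khdc3-null library lay below every wild type library. Of the 1889 features tested below, 2.01% were apart in that direction.

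**Figure D3:**
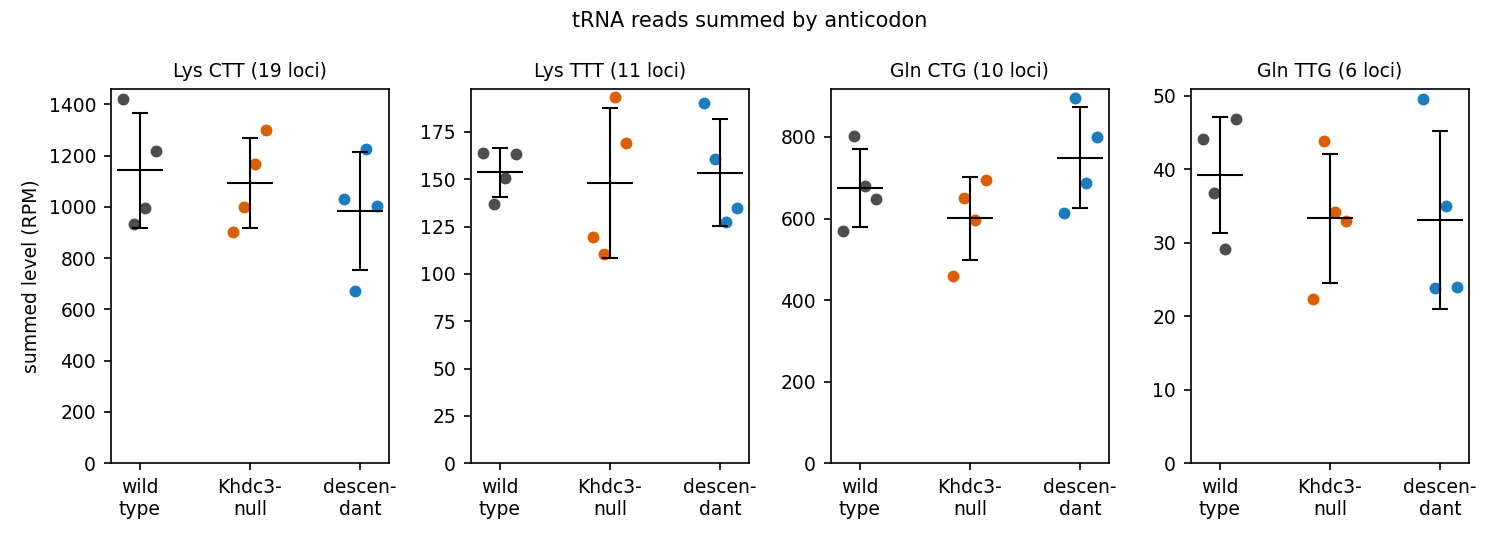
Summed level in RPM of the Lys CTT, Lys TTT, Gln CTG and Gln TTG loci in each library, with 1 panel per anticodon, a point per library and bars for the group mean and SD. The 3 groups overlap in every panel.

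Many of the loci had nearly the same level as each other in all 12 libraries. The squared difference in reads between 2 loci, divided by the sum of their reads and averaged over libraries, is about 1 when both have the same level and differ by read counting alone. Its median over all 1035 pairs was 47.3. At a like relative difference this measure grows with the number of reads, so scarce loci stay low on it more easily. Grouping loci whose every pair had an index of at most 2, a limit chosen after the values were seen and given here without a test, put 29 of the 46 loci into 7 groups and left 17 loci in none. The deposited values do not show how reads that align to several copies were placed, so whether such loci share reads was not tested.

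The largest group held 7 Lys CTT loci on chromosomes 3, 11, 13 and 17, chr13.trna103, chr17.trna83, chr3.trna292, chr17.trna999, chr3.trna748, chr17.trna81 and chr11.trna2023. Their means lay between 34.1 and 35.7 RPM, and their pair index between 0.154 and 1.07, about what counting alone gives or less. Together they summed to 325, 249, 182 and 401 RPM in wild type, 216, 224, 206 and 251 RPM in Khdc3-null and 399.7, 156, 154 and 178 RPM in descendant libraries. The fourth wild type and first descendant libraries were highest, and both were also among the 3 libraries in which glycine and glutamate loci held more than 36% of the tRNA reads (36.6% and 37.3%). The other was the first Khdc3-null library (37.0%), which was not high for the 7 loci. By group the sum was 289 ± 94.8, 224 ± 19.4 and 222 ± 119 RPM (SD, n = 4 each), with overlap throughout. A pair of further Lys CTT loci, chr9.trna1035 and chr12.trna796, matched each other (index 1.58) at a similar mean, 31.2 and 31.0 RPM, but not the 7 (index 10.4 between chr13.trna103 and chr9.trna1035). That pair summed to 61.0, 68.2, 74.3 and 71.0 RPM in wild type, 67.1, 60.3, 79.2 and 56.6 RPM in Khdc3-null and 80.5, 41.6, 32.2 and 53.6 RPM in descendant libraries, lowest in the third descendant library.

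A second large group held 6 Lys TTT loci on chromosomes 1, 11, 13 and 19, with means of 16.9 to 18.0 RPM and a pair index of 0.431 to 1.82. They summed to 112, 84.8, 90.4 and 113 RPM in wild type, 96.3, 79.8, 126 and 114 RPM in Khdc3-null and 150.2, 119, 78.1 and 92.7 RPM in descendant libraries. chr10.trna895-LysTTT, with a like mean of 15.7 RPM, did not match them, with an index of 6.51 to chr1.trna485-LysTTT. A pair of scarcer Lys TTT loci, chr7.trna1280 and chr13.trna83, had an index of 0.890.

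For glutamine, a group of matching loci held both anticodons, but its loci were scarce, and scarce loci match more easily. The nearest other lysine or glutamine locus had a mean index of 2.93 to that group, against 9.12 for the 7 Lys CTT loci. A group of 6 loci joined 3 Gln CTG loci on chromosome 3 (chr3.trna753, chr3.trna297 and chr3.trna756) with 3 Gln TTG loci on chromosomes 11 and 13 (chr11.trna1493, chr13.trna113 and chr13.trna114), with means of 4.42 to 5.16 RPM and a pair index of 0.426 to 1.52. They summed to 31.8, 28.8, 36.6 and 44.8 RPM in wild type, 24.5, 22.6, 17.1 and 17.0 RPM in Khdc3-null and 49.8, 24.3, 22.8 and 24.2 RPM in descendant libraries. Every Khdc3-null library lay below every wild type library in this sum, with group means of 35.5 ± 6.99, 20.3 ± 3.82 and 30.3 ± 13.0 RPM (SD, n = 4 each), and the first descendant library stood above the other 3. Both loci that separated Khdc3-null from wild type libraries one by one, chr13.trna113-GlnTTG and chr3.trna756-GlnCTG, belonged to this group, so they cannot be taken as separate observations. Over all features tested, 2.01% were apart with Khdc3-null lower. chr3.trna756-GlnCTG, named after its values were seen, stood at 5.79, 5.70, 5.68 and 8.05 RPM in wild type, 4.21, 4.45, 2.48 and 3.02 RPM in Khdc3-null and 8.78, 3.80, 4.03 and 5.92 RPM in descendant libraries. A group of 4 scarce Gln CTG loci (chr9.trna342, chr11.trna1817, chr13.trna64 and chr13.trna994) summed to 7.96, 14.5, 11.9 and 9.99 RPM in wild type, 19.5, 7.88, 1.75 and 1.37 RPM in Khdc3-null and 19.5, 10.3, 12.1 and 13.6 RPM in descendant libraries, lowest in the third Khdc3-null library and the fourth. The last group was the Gln TTG pair of chr11.trna630 and chr13.trna1007 (index 1.94).

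**Figure D4:**
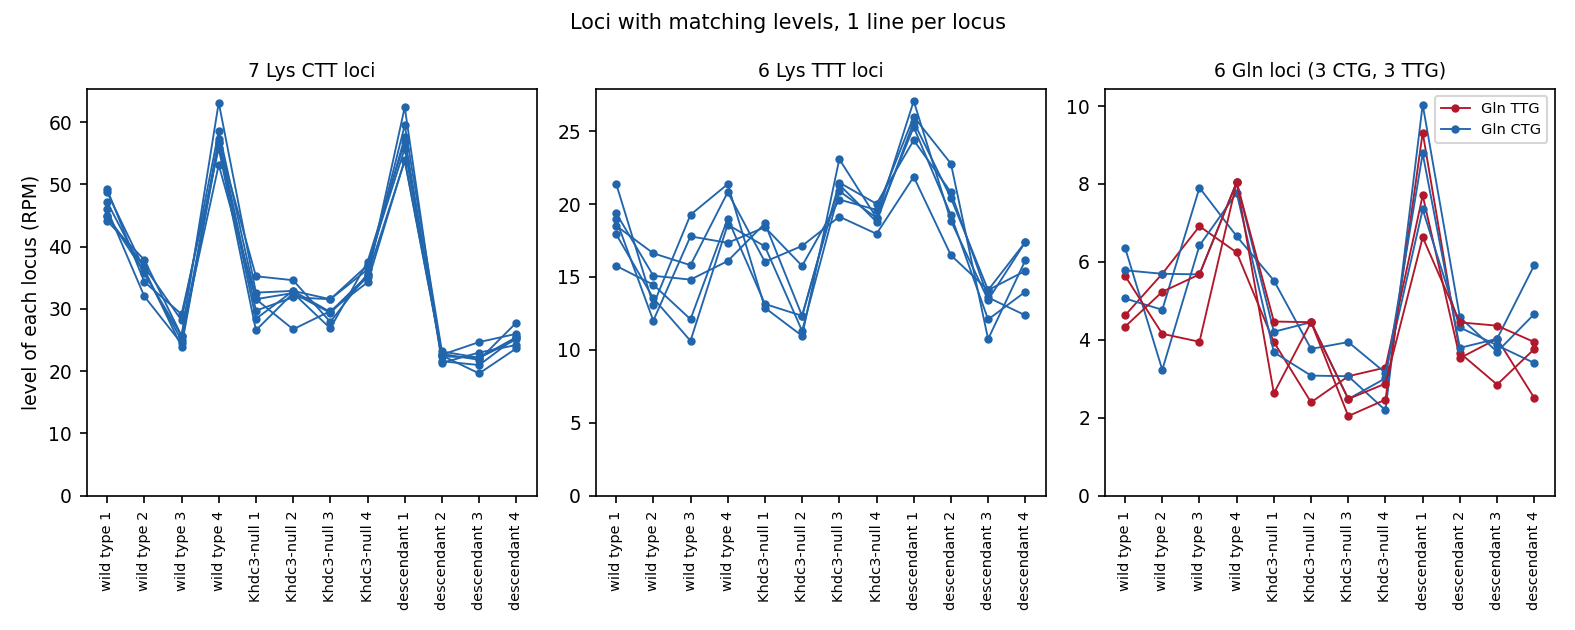
Level in RPM of each locus (lines) in each of the 12 libraries for the 3 largest groups of matching loci, 7 Lys CTT, 6 Lys TTT and 6 glutamine loci of both anticodons. The lines of a group run together, with a pair index of at most 1.82, and the 7 Lys CTT lines peak in the fourth wild type and first descendant libraries.

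Differences between groups were tested with limma on log2(RPM + 1) over all 1889 features that reached 1.61 RPM in at least 4 libraries, which kept 45 of the 46 loci, with Benjamini-Hochberg adjustment over all of them and a threshold of 0.05. Fold changes on this scale understate the change of scarce loci. The 3 comparisons share libraries in pairs and are given side by side, not as support for each other.

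Between Khdc3-null and wild type oocytes no lysine or glutamine locus passed the test, in a comparison in which 0% of the 1889 features passed. None of the 45 loci had an unadjusted p under 0.05, against 95 of all features (5.03%). With limma-voom on the reads 2 loci were at that level, against 95 of 1889 features, and none passed after adjustment. Of the 45 loci, 38 had a lower and 7 a higher mean in Khdc3-null, with a median difference of -0.22 on the log2 scale against -0.05 over all features, of which 1121 were lower. By anticodon, 16 of 18 Lys CTT loci (median -0.23), 7 of 11 Lys TTT loci (median -0.02), 10 of 10 Gln CTG loci (median -0.45) and 5 of 6 Gln TTG loci (median -0.53) were lower. Of the other 344 tRNA loci 215 were lower (median -0.08), among them 37 of 50 glycine and glutamate loci (median -0.13). Loci of matching level cannot be taken as separate measurements, so these counts may hold fewer observations than loci. Without the first Khdc3-null library, 31 of the 45 were lower, with a median of -0.18 against 0.01 over all features. In that fit 2 of the 45 had an unadjusted p under 0.05, against 125 of 1887 features. With no filter on low values 5 of 46 loci had one, against 97 of 2030 features, and none of the 5 passed after adjustment.

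The smallest p-values of this comparison belonged to scarce loci. chr11.trna1817-GlnCTG, with 1 to 29 reads per library, stood at 2.46, 4.46, 3.21 and 1.94 RPM in wild type, 4.47, 1.03, 0.146 and 0.274 RPM in Khdc3-null and 3.94, 3.53, 3.36 and 3.77 RPM in descendant libraries, and its log2 difference was -0.96 (SE 0.50, 95% interval -2.03 to 0.11, adjusted p = 0.945). Its first Khdc3-null library was as high as any wild type library, the other 3 were below all of them, and without the first the difference was -1.45 (adjusted p = 0.601). chr3.trna1-LysCTT, whose values are given above, had a difference of -1.62 (SE 0.85, 95% interval -3.44 to 0.20, adjusted p = 0.945). chr3.trna753-GlnCTG stood at 6.36, 3.23, 6.42 and 7.77 RPM in wild type, 3.68, 3.08, 3.07 and 2.19 RPM in Khdc3-null and 10.0, 4.58, 3.69 and 4.66 RPM in descendant libraries, a difference of -0.76 (SE 0.40, 95% interval -1.61 to 0.10, adjusted p = 0.945). For these 3 loci the 95% intervals reach from a large decrease to a small increase. The groups of 2 of the 45 loci did not overlap, both lower in Khdc3-null, against 3.18% of all features in either direction and 2.01% with Khdc3-null lower. Of the abundant loci, chr1.trna1276-LysCTT differed by 0.12 (SE 0.29, 95% interval -0.49 to 0.74) and chr3.trna309-GlnCTG by -0.17 (SE 0.20, 95% interval -0.61 to 0.26), or by -0.02 without the first Khdc3-null library. chr13.trna87-GlnCTG differed by -0.12 (SE 0.16, 95% interval -0.46 to 0.23) and chrX.trna643-LysCTT by -0.19 (SE 0.19, 95% interval -0.59 to 0.22), none of them past the limma threshold.

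Between descendant and wild type oocytes no lysine or glutamine locus passed either, again with 0% of all features past the threshold. None had an unadjusted p under 0.05, against 4.08% of all features, and limma-voom gave 0 as well. Without the first descendant library 10 of the 45 had one, against 93 of 1886 features, and none passed the adjusted threshold. Loci of matching level cannot be taken as separate measurements, so the 10 may hold fewer observations than loci. Here 17 loci were higher and 28 lower in descendants, with a median of -0.16 against -0.02 over all features, of which 1022 were lower. Single libraries moved this median, to -0.05 without the fourth wild type, to -0.09 without the second descendant and to -0.28 without the first descendant library. Of the other 344 tRNA loci 212 were lower (median -0.07), among them 38 of 50 glycine and glutamate loci (median -0.09). Lys CTT loci were lower in 13 of 18 cases (median -0.33) and Gln TTG loci in 5 of 6 (median -0.31), while Gln CTG loci were higher in 6 of 10 (median 0.15) and Lys TTT loci split 5 to 6 (median -0.05). No locus had groups that did not overlap, against 2.75% of all features.

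The smallest p was that of chr13.trna87-GlnCTG, with a difference of 0.31 (SE 0.16, 95% interval -0.04 to 0.65, adjusted p = 0.946), from group means of 221 ± 26.2 RPM in wild type and 274 ± 36.9 RPM in descendants (SD, n = 4 each). chr12.trna796-LysCTT stood at 31.2, 29.2, 39.8 and 36.2 RPM in wild type, 34.2, 29.8, 37.5 and 29.9 RPM in Khdc3-null and 37.8, 21.9, 18.0 and 26.0 RPM in descendant libraries. Its difference was -0.43 (SE 0.25, 95% interval -0.96 to 0.11, adjusted p = 0.946), with 3 descendant libraries below all wild type libraries and the first one among the highest. chr17.trna999-LysCTT, 1 of the 7 matching Lys CTT loci, stood at 47.2, 35.7, 25.7 and 63.1 RPM in wild type, 32.6, 32.9, 29.5 and 35.4 RPM in Khdc3-null and 53.8, 22.5, 19.6 and 23.7 RPM in descendant libraries, a difference of -0.55 (SE 0.33, 95% interval -1.25 to 0.15, adjusted p = 0.946). At this locus the first descendant library was high and the other 3 lay below the lowest wild type library. The other abundant loci differed by -0.33 (SE 0.29, 95% interval -0.94 to 0.29) at chr1.trna1276-LysCTT and by 0.05 (SE 0.20, 95% interval -0.38 to 0.49) at chr3.trna309-GlnCTG. The fourth differed by 0.15 (SE 0.19, 95% interval -0.26 to 0.56) at chrX.trna643-LysCTT, and none of the 4 passed.

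Between descendant and Khdc3-null oocytes again 0 of the 45 loci and 0% of all features passed. With an unadjusted p under 0.05 there were 2 loci, both Gln CTG and both higher in descendants, against 6.41% of all features. With limma-voom there were 3, against 122 of 1889 features, and none of them after adjustment. Without the first Khdc3-null library there were 4, against 143 of 1887 features. Over the 45 loci 25 were higher and 20 lower, and the median of 0.14, against 0.05 over all features, did not keep its sign. It was -0.02 with limma-voom, -0.03 over the 24 loci that reached 10 RPM in at least 4 libraries, -0.03 without the first Khdc3-null library and -0.02 without the first descendant library. Scaled to the tRNA total of each library, which moved the median of all features to 0.16, 13 of the 45 were lower. All 10 Gln CTG loci were higher in descendants, with a median of 0.59, and so were 1073 of all 1889 features. Lys CTT loci were lower in 12 of 18 cases (median -0.08), Lys TTT loci in 5 of 11 (median 0.05) and Gln TTG loci in 3 of 6 (median 0.08). Loci of matching level, Gln CTG loci among them, cannot be taken as separate measurements, so these counts may hold fewer observations than loci. The 2 loci were chr13.trna87-GlnCTG, with a difference of 0.42 (SE 0.16, 95% interval 0.08 to 0.77, adjusted p = 0.722), and chr11.trna1817-GlnCTG, with 1.21 (SE 0.50, 95% interval 0.14 to 2.28, adjusted p = 0.722). chrX.trna643-LysCTT came next, with 0.34 (SE 0.19, 95% interval -0.07 to 0.75, adjusted p = 0.738). The remaining abundant loci, chr1.trna1276-LysCTT and chr3.trna309-GlnCTG, differed by -0.45 (SE 0.29, 95% interval -1.06 to 0.17) and 0.22 (SE 0.20, 95% interval -0.21 to 0.66), the latter by 0.07 without the first Khdc3-null library. The groups of 1 locus, chr3.trna753-GlnCTG, did not overlap, with descendants higher, against 3.02% of all features in either direction and 1.75% with descendants higher. Its highest Khdc3-null value was 3.682 RPM and its lowest descendant value 3.693 RPM, a gap smaller than 1 read (0.263 and 0.168 RPM in those libraries).

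**Figure D5:**
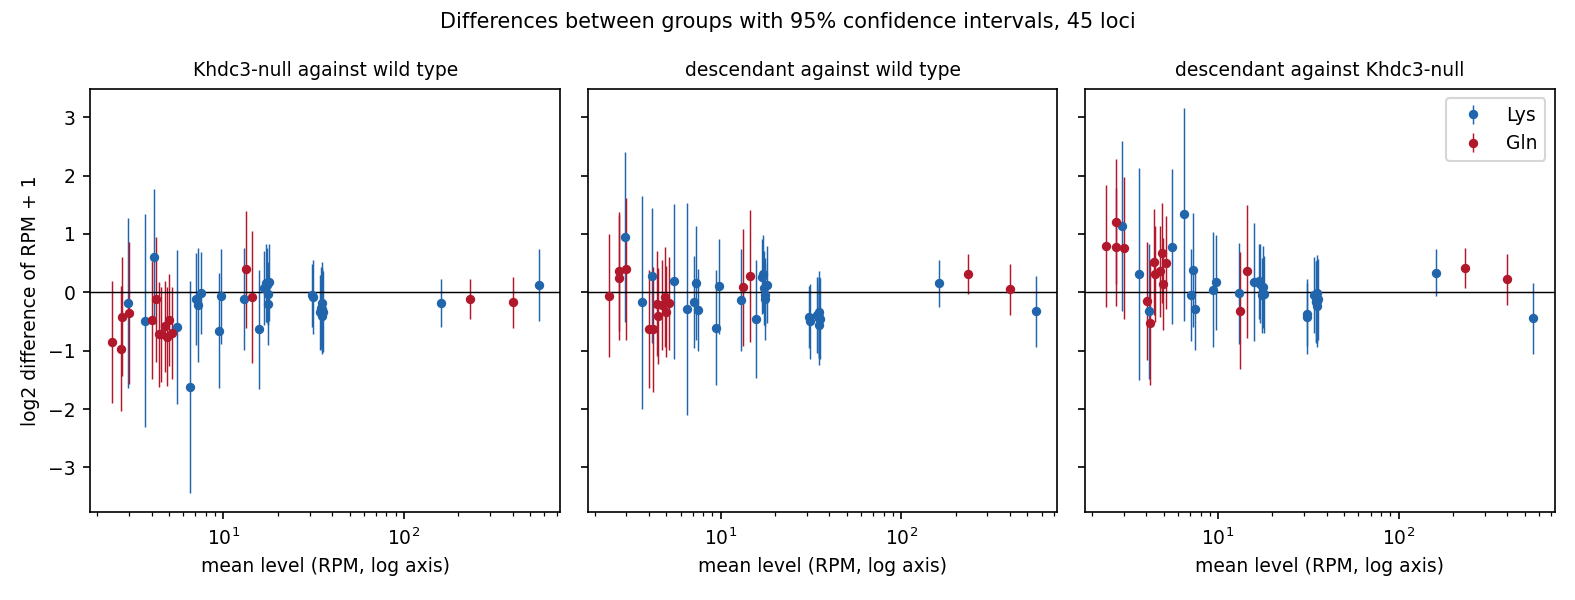
Log2 difference between groups of each of the 45 tested loci, fitted with limma on log2(RPM + 1), with 95% intervals, against its mean level in RPM (log axis), in 1 panel per comparison and coloured by amino acid. No locus passed the adjusted threshold in any panel, and most estimates in the Khdc3-null against wild type panel lie below 0.

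Sums over an anticodon were fitted in a second limma model in which every tRNA row of the table was summed by amino acid and anticodon (1553 rows, of which 0% passed in each comparison). Whether reads are shared between anticodons, or counted at more than 1 copy, was not tested. Khdc3-null against wild type, Gln CTG differed by -0.17 (SE 0.15, 95% interval -0.50 to 0.15, adjusted p = 0.999) and Gln TTG by -0.24 (SE 0.30, 95% interval -0.88 to 0.39, adjusted p = 0.999). Without the first Khdc3-null library Gln CTG differed by -0.05 (adjusted p = 0.998). Lys CTT differed by -0.06 (SE 0.18, 95% interval -0.43 to 0.32, adjusted p = 0.999) and Lys TTT by -0.09 (SE 0.19, 95% interval -0.49 to 0.32, adjusted p = 0.999) in that comparison. Descendants against wild type, Gln CTG differed by 0.15 (SE 0.15, 95% interval -0.18 to 0.47, adjusted p = 0.965) and Gln TTG by -0.28 (SE 0.30, 95% interval -0.91 to 0.35, adjusted p = 0.965). Lys CTT then differed by -0.23 (SE 0.18, 95% interval -0.60 to 0.15, adjusted p = 0.965) and Lys TTT by -0.02 (SE 0.19, 95% interval -0.42 to 0.39, adjusted p = 0.995). Descendants against Khdc3-null, the Gln CTG sum came nearest to the threshold, with a difference of 0.32 (SE 0.15, 95% interval -0.00 to 0.64, adjusted p = 0.719) and an unadjusted p of 0.0508. Without the first Khdc3-null library that difference was 0.20 (adjusted p = 0.802). Its group means were 749 ± 125 RPM in descendant and 601 ± 102 RPM in Khdc3-null libraries (SD, n = 4 each), which overlapped. Gln TTG differed by -0.04 (SE 0.30, 95% interval -0.67 to 0.59, adjusted p = 0.976), Lys CTT by -0.17 (SE 0.18, 95% interval -0.54 to 0.21, adjusted p = 0.848) and Lys TTT by 0.07 (SE 0.19, 95% interval -0.33 to 0.47, adjusted p = 0.929). For all 4 sums the intervals lay within a change of 2-fold in either direction in each of the 3 comparisons. limma's F test for any difference among the 3 groups called 0 of the 45 loci and none at an unadjusted p under 0.05, with a lowest adjusted p of 0.901, against 93 features of the whole table at that unadjusted level. For single loci the 95% interval of the difference lay within 2-fold on both sides for 20 loci in Khdc3-null against wild type, for 18 in descendants against wild type and for 22 in descendants against Khdc3-null.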

How the data were processed

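Small RNA libraries of mouse oocytes were made, per the labels' protocols, from RNA isolated with the PicoPure kit and with the NEXTFLEX small RNA kit. Per the submitters' processing notes, Bowtie2 and the build mm10 were used; the version, and how a read matching several loci was counted, are not given in the sources used here. The authors deposited 1 table of RPM values with 1 added to each. After subtraction, 100% of the values were whole multiples of the value of 1 read within 0.01 reads (largest departure 3.73e-05), which gave the mapped reads per library. Group membership follows the genotype label, and replicates are numbered in order of listing, so numbers pair nothing.

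Features with 1.61 RPM or more (10 reads in a library of median depth) in 4 libraries or more were fitted with limma 3.58.1 (R 4.3.3, variance trend, log2(RPM + 1), 12 libraries, 3 group means, no covariates) with two-sided p-values adjusted by the Benjamini-Hochberg method over all 1889 features. The fit was also run on simulated libraries, in which all features had the same spread beyond read counting and varied independently. Many of the loci here moved together, so that run does not measure how well their differences are found. Loci with values in every library were, by rule, the 3 of highest mean per anticodon, the 3 of smallest p per comparison and any locus above 10 RPM whose groups do not overlap; loci named outside this rule were chosen after their values were seen. The loci, lists and rules were chosen with earlier results of these data known. Alternatives were other constants, filters, scalings, limma-voom and leaving out single libraries. Intervals are 95% limma intervals. Descriptions were computed with Python 3.11.15 and pandas 2.3.3.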

Additional observations from a re-analysis of the deposited data

Results flagged for a closer look

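Dixon's criterion asks whether the gap from a library to its nearest is too large a part of the range (95% level). In each group it was applied to the loci named by the rule above and to each anticodon sum. The lysine and glutamine share of tRNA reads was checked as well. Loci named outside the rule were not checked. Among them, chr5.trna1628-LysCTT stood at 10.1 RPM in the third Khdc3-null library, against 0.526, 0.685 and 1.10 RPM in the others of that group. Of the 66 groups checked, 4 were past the criterion, and chance gives about 1 in 20. All 4 concern the first descendant library. At chr13.trna103-LysCTT it stood at 62.4 RPM, against 21.3, 23.0 and 24.2 RPM in the other descendant libraries. At chr17.trna999-LysCTT it stood at 53.8 RPM, against 19.6, 22.5 and 23.7 RPM. These 2 loci belong to the 7 Lys CTT loci of matching level and cannot be taken as separate observations. At chr3.trna753-GlnCTG it stood at 10.0 RPM, against 3.69, 4.58 and 4.66 RPM. At chr13.trna87-GlnCTG it was low instead, at 219 RPM, against 286, 294 and 297 RPM. This library was also among the 3 with the highest glycine and glutamate share of tRNA reads (37.3%); whether that has a part in the 4 values was not tested.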

How the results depend on the processing

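No lysine or glutamine locus passed the adjusted threshold under any alternative run, including each of the 12 libraries left out in turn. Over all features, 1 that was no lysine or glutamine locus passed for Khdc3-null against wild type without a filter (of 2030), and 1 without the first Khdc3-null library. Over the log2 differences of anticodon sums, 92 estimates kept their sign under other constants, filters, scalings and fits and 4 did not, all near 0. Lys TTT in descendants against wild type turned to 0.011 with median-of-ratios scaling and 0.024 with scaling to the tRNA total. Gln TTG in descendants against Khdc3-null turned to 0.078 with scaling to the tRNA total, and Lys TTT to -0.0047 with limma-voom. Leaving out single libraries, the sign also turned for Lys CTT in Khdc3-null against wild type (range -0.15 to 0.053), for Lys TTT in Khdc3-null against wild type (-0.23 to 0.040), in descendants against wild type (-0.12 to 0.065) and against Khdc3-null (-0.057 to 0.21), and in descendants against Khdc3-null for Gln TTG (-0.25 to 0.10) and Lys CTT (-0.29 to 0.0021). So did chr1.trna1276-LysCTT (-0.014 to 0.30) and chr13.trna87-GlnCTG (-0.19 to 0.012) in Khdc3-null against wild type, and chr3.trna309-GlnCTG (-0.088 to 0.18) in descendants against wild type. None of these passed the threshold in any fit, and the cause was not tested. Without the most abundant locus the lysine and glutamine share of tRNA reads was 2.07% in wild type, 1.72% in Khdc3-null and 2.16% in descendant libraries.

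The count models planned for reads were not run, because the deposited values are RPM with 1 added; limma-voom on the recovered reads was. No paired analysis was possible because the labels give no replicate numbers or shared litters. The scarcest loci rest on a few reads per library, which limits their precision.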
